A study of Homo sapiens with 12 samples.

Results

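The 42 collagen chain genes examined here were the protein-coding genes whose symbol has the form COL, a number, A and a number, among 36502 genes in the count table. They comprised 11 fibrillar chains, 6 type IV chains of basement membranes and 25 other chains. RNA had been sequenced from HT1080, a human fibrosarcoma line, in 12 libraries, with the aim of following genomic regions that touch the nuclear lamina. One clone carried the m6A-Tracer joined to the VP16 activation domain and is called the VP16 clone. The other carried the m6A-Tracer alone and is called the GFP clone. The tracer is a GFP fusion protein with a domain for methylated adenine in DNA. As 1 clone stood for each construct, an effect of the construct cannot be told apart from one of the clone.

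In each clone 3 conditions were sequenced with 2 libraries each. The tracer_Dam cells were taken 24 h after doxycycline had been removed, following 3 days with it, and also received 500 nM Shield1, which stabilises a fusion of the methyltransferase Dam to lamin B1. The tracer cells had the same doxycycline schedule and no Shield1. The uninduced cells stayed in doxycycline at 50 ng/ml for 4 days. The groups are named VP16_tracer_Dam, VP16_tracer, VP16_uninduced, GFP_tracer_Dam, GFP_tracer and GFP_uninduced. The labels do not say whether paired libraries are separate cultures, so p-values cover the spread between libraries, which may be technical. One library of each group used each run of 6 index sequences, and these runs are called index sets 1 and 2.

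Collagens are matrix proteins whose chains wind around one another as trimers, and each trimer is built from particular chains. Fibrillar chains make the banded fibrils of connective tissue. Type IV chains make the sheet-like network of basement membranes, and type VI chains make beaded filaments around cells. Other chains decorate fibrils, anchor epithelia or span the cell membrane. Fibrosarcoma cells are mesenchymal, and mesenchymal cells are a main source of fibrillar collagen in tissues.

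Libraries held 18774905 to 24827396 counted reads, and collagen chains took 0.304% to 0.486% of them. Levels are given as CPM, the read count scaled to library size by TMM. The mesenchymal markers VIM and FN1 averaged 3393 and 1624 CPM over the 12 libraries, while THY1 and NT5E, also on that list, were under 1 CPM. The epithelial markers EPCAM and CDH1 and the blood marker PTPRC averaged 0.09, 0.13 and 0.02 CPM. The sums of the epithelial, endothelial and blood lists reached at most 15.3, 4.23 and 0.57 CPM in any library. The GFP_tracer_Dam and GFP_tracer libraries of index set 1 stood apart from the rest: the summed level of 10 targets of the stress factor ATF4 was 2458 and 2254 CPM in them, against 537 to 800 CPM in the other libraries. LMNB1, which encodes lamin B1, was at 29.5 and 36.9 CPM in the same pair, against 121.7 to 202.5 CPM in the others. The sum of 7 mesenchymal markers was 3201 and 3269 CPM in this pair, against 4127 to 6392 CPM, and that of 5 epithelial markers 15.3 and 11.3 CPM, against 2.77 to 5.33 CPM. The splicing regulator ESRP1 reached 10.7 CPM in the highest GFP library with a GFP median of 0.20 CPM, while CLDN4, the member with the highest average, was at 3.57 to 3.96 CPM in all GFP libraries.

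Of the 42 chains, 21 averaged at least 1 CPM, namely 4 fibrillar, 3 type IV and 14 other chains, and 8 exceeded 100 CPM. The 6 chains with the highest levels held 87.2% of all collagen counts. A filter on low counts passed 32 chains to the tests, 8 fibrillar, 5 type IV and 19 other. It asked for enough counts in as many libraries as a group holds, so a chain could pass through 1 clone alone. With only the VP16 libraries 27 chains passed, 3 of them type IV, and with only the GFP libraries 31, 5 of them type IV. The 11 tested chains under 1 CPM were COL9A2, COL11A2, COL4A6, COL2A1, COL9A3, COL4A4, COL5A3, COL6A6, COL10A1, COL11A1 and COL21A1, from 0.91 down to 0.28 CPM. The 10 chains not tested were COL4A3, COL3A1, COL20A1, COL24A1, COL14A1, COL25A1, COL1A2, COL19A1, COL28A1 and COL23A1, with 4 to 40 counts over all 12 libraries.

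The type VI chains led the collagens. COL6A3, the large chain of the type VI filament, averaged 1721 CPM and ranked 30 among all genes by this level. COL6A1 averaged 507 CPM and COL6A2, its partner chain, 219 CPM. Per kilobase of coding sequence the averages of COL6A3, COL6A1 and COL6A2 were 180.5, 164.5 and 71.5 CPM, ranks 1, 2 and 5 among the chains. COL6A5, a later-described type VI chain, averaged 1.20 CPM, and COL6A6 was under 1 CPM.

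The type IV chains fell into a high pair and 4 low chains. COL4A2 and COL4A1, which assemble together in nearly all basement membranes, averaged 494 and 268 CPM, or 96.2 and 53.5 CPM per kilobase. COL4A5 averaged 12.3 CPM. COL4A6, COL4A4 and COL4A3 averaged 0.89, 0.58 and 0.15 CPM. COL4A3, COL4A4 and COL4A5 build the network of the mature kidney filter, and COL4A5 with COL4A6 that around smooth muscle.

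Among fibrillar chains COL5A1, a type V chain that starts fibrils, led with an average of 285 CPM, or 51.7 CPM per kilobase. COL27A1, known from cartilage, averaged 108 CPM or 19.3 CPM per kilobase, and COL1A1, the main chain of type I collagen, 15.2 CPM or 3.45 CPM per kilobase. COL1A2, its partner in type I trimers, had 18 counts in all 12 libraries together. COL3A1, the chain of type III collagen in skin and vessels, had 38. The counts of COL1A1 exceeded those of COL1A2 by 44.5 to 241 times in 4 VP16 libraries, the other 2 having none of COL1A2, and by 113.5 to 542 times in GFP libraries. COL5A1 counts exceeded those of COL5A2, its partner, by 183 to 243 times in VP16 libraries and by 116 to 195 times in GFP libraries. COL5A2 averaged 1.55 CPM.

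The remaining chains spanned a wide range. COL13A1, a membrane-spanning collagen, averaged 169 CPM or 77.3 CPM per kilobase, and COL17A1, the hemidesmosome collagen of epithelia, 40.3 CPM or 8.96 CPM per kilobase. COL12A1, which binds the surface of fibrils, averaged 74.5 CPM, COL16A1 of the same family 20.5 CPM, and COL22A1, known from muscle-tendon junctions, 16.1 CPM. COL7A1, the anchoring fibril chain of skin, averaged 28.9 CPM. COL18A1 and COL15A1, vascular and basement membrane collagens of which the first yields endostatin, averaged 7.57 and 5.29 CPM. COL8A1 and COL8A2, short chains of vessel walls and the cornea, averaged 3.70 and 2.07 CPM.

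**Figure D1:**
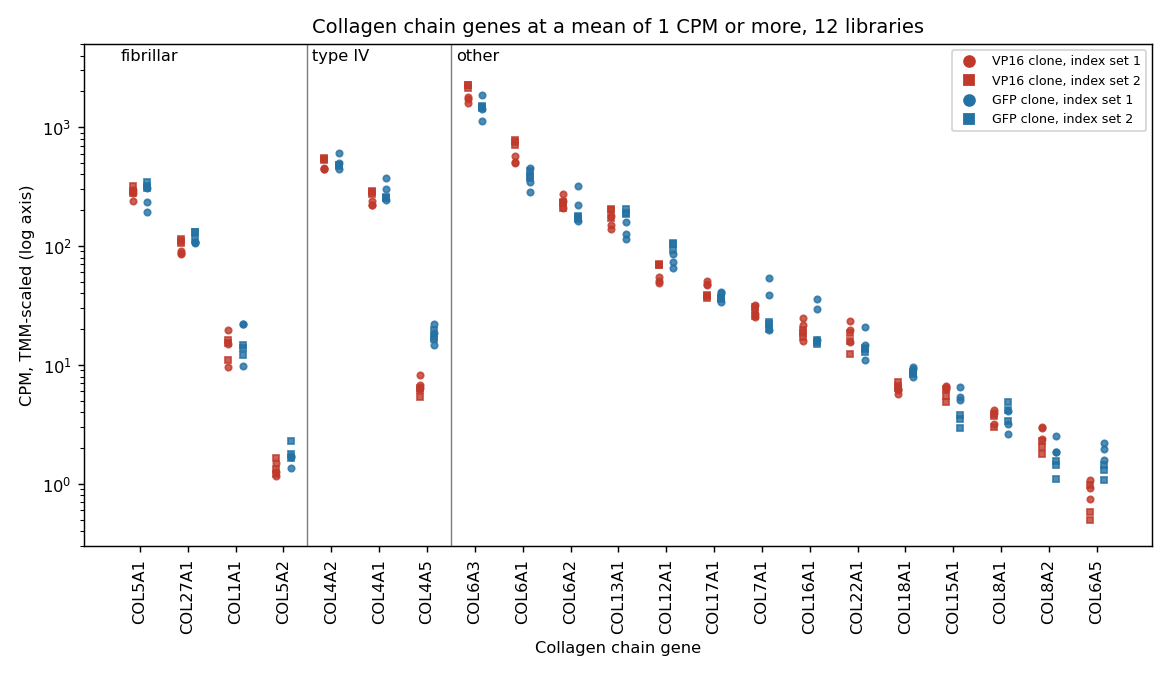
Each point is the level of a collagen chain in 1 library, in TMM-scaled CPM on a log axis, for the 21 chains averaging at least 1 CPM, ordered by level within fibrillar, type IV and other chains. Red marks the VP16 clone and blue the GFP clone, circles index set 1 and squares index set 2; COL6A3 stood highest at 1721 CPM on average, and COL4A5 is split by clone.

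Type IV genes lie in head-to-head pairs, whose start sites face away from each other across a short shared interval. In the GRCh37 positions of the count table, COL4A4 and COL4A3 on chromosome 2 were 451 bases apart and COL4A6 and COL4A5 on chromosome X 346 bases apart, while COL4A1 and COL4A2 on chromosome 13 overlapped by 1338 bases. Bases of these intervals are shown because the members of a pair can be read against each other in the clone comparison. The sequences are from RefSeq on GRCh38.p14, with CCAAT (or ATTGG, its reverse complement) and GGGCGG (or CCGCCC) in capitals. The first is the whole 126 bases between the COL4A1 and COL4A2 starts, chr13:110307158-110307283, plus strand. The second is the 250 bases upstream of COL4A4, chr2:227164206-227164455, minus strand, in an interval of 418 bases to the COL4A3 start. The third is the 250 bases upstream of COL4A5, chrX:108439588-108439837, plus strand, in an interval of 379 bases to the nearer of 2 COL4A6 starts.
COL4A1-COL4A2 interval: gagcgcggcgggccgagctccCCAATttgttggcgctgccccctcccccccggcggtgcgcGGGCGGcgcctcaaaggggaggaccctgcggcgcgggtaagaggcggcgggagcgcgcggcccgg
COL4A4 upstream: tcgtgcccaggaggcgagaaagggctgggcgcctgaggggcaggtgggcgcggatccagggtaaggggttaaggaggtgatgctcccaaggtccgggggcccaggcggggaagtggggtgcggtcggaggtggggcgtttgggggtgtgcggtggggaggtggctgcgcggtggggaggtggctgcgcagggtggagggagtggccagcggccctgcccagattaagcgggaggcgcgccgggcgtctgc
COL4A5 upstream: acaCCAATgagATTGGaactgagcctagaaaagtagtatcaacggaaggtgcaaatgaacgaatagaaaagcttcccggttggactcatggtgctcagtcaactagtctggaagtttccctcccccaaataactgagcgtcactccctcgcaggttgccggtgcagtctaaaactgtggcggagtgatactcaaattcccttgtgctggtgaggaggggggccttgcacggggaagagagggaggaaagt

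The first sequence, a whole interval, held 1 CCAAT and 1 GGGCGG. The third, 250 bases of its interval, held CCAAT and ATTGG once each. The second, also 250 bases of its interval, held neither motif. In the 250 bases upstream of COL4A3 and of COL4A6, which are not shown, GGGCGG or CCGCCC did occur. The pairs are therefore not compared over whole intervals. Promoter sequence was found for 30 of the 42 chains. In the 250 bases upstream of the start, CCAAT or ATTGG occurred in 10 of the 30 (33.3%), against 37.0% of 27305 genes with a promoter in the table. GGGCGG or CCGCCC occurred in 21 (70.0%), against 46.2%, and TATAAA or TTTATA in 7 (23.3%), against 13.0%. A match says only that the letters are present.

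The uninduced clones were compared first, to measure where the clones stood before induction. COL4A4 and COL4A5 were lower in VP16_uninduced than in GFP_uninduced. COL4A4 was at 0.05 CPM in each VP16_uninduced library, against 0.93 and 1.12 CPM in GFP_uninduced, where index set 1 is given first as in all pairs of values below. This is 2 counts against 49, and the ratio of VP16_uninduced over GFP_uninduced was 0.048 with an exact binomial 95% interval of 0.0057 to 0.184, which covers counting error only. COL4A5 was at 6.36 and 5.38 CPM in VP16_uninduced, against 14.6 and 19.8 CPM in GFP_uninduced. In neither chain did the groups overlap, with 2 libraries a group and the share of all genes so separated not given here.

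The log2 difference was -4.22 ± 0.60 for COL4A4 (SE, edgeR quasi-likelihood adjusted p = 0.042) and -1.55 ± 0.23 for COL4A5 (adjusted p = 0.045). These were the 2 of 32 tested chains that passed an adjusted p of 0.05, both lower, and 0.278% of all 17262 genes tested did, 0.0753% higher and 0.203% lower. In bulk RNA, fewer cells expressing a gene and less of its RNA per cell cannot be told apart. With the index set as a block, COL4A6 passed as well, at -2.64 ± 0.41 (adjusted p = 0.021, and 0.14 without the block), making 3 of 32, against 1.89% of all genes, 0.475% higher and 1.42% lower. COL4A6 was at 0.38 and 0.14 CPM in VP16_uninduced, against 1.86 and 1.31 CPM in GFP_uninduced. Over the 12 blocked fits that leave out 1 library its log2 difference ranged from -3.21 to -2.27, and its call did not hold in each. COL4A4 and COL4A6 passed the low-count filter only through the GFP libraries, where they were high. The counts of 2 and 3 of 32 rest partly on that entry. With limma-voom COL4A4 and COL4A5 had adjusted p of 0.0996 and 0.070, and in 10 of the 12 fits without the block that leave out 1 library neither COL4A4 nor COL4A5 passed, with adjusted p of up to 0.49; the exceptions left out a GFP_tracer_Dam library.

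Over the 3 conditions together, the VP16 clone had lower COL4A4, COL4A5, COL4A6 and COL18A1 and higher COL6A1 than the GFP clone. These 5 of the 32 tested chains passed, against 7.64% of all genes tested (2.62% higher and 5.01% lower), and for the same 5 the 6 VP16 libraries did not overlap the 6 GFP libraries, against 10.7% of all genes tested. By class, 3 of 5 type IV chains, 2 of 19 other chains and 0 of 8 fibrillar chains passed. The median log2 difference was -1.47 in type IV chains, -0.24 in fibrillar chains and -0.00 in other chains, and 0.00 in all genes tested. COL4A4 and COL4A6 passed the low-count filter only through the GFP libraries. They held 14 to 36 and 26 to 49 counts there, against 1 to 6 and 2 to 7 in VP16 libraries. The type IV count and median rest partly on that entry. With the index set as a block 1 fibrillar chain, COL27A1, passed as well. Of all genes, 4098 had an unadjusted p under 0.05 here, and 9 of the chains did.

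The low type IV chains gave the widest differences. COL4A4 (chromosome 2, 227867427 to 228028829, GRCh37) was at 0.05, 0.11 and 0.28 CPM as lowest, median and highest VP16 library, against 0.69, 0.98 and 1.52 CPM in GFP libraries. Every VP16 library lay below every GFP library, although VP16 libraries held only 1 to 6 counts each. The log2 difference was -3.23 ± 0.31 (SE, edgeR adjusted p = 0.0011).

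COL4A6 (chromosome X, 107386780 to 107682727) was at 0.09, 0.24 and 0.38 CPM in VP16 libraries, against 1.10, 1.48 and 1.99 CPM in GFP libraries, again without overlap. Its log2 difference was -2.73 ± 0.33 (SE, edgeR adjusted p = 0.0031). COL4A6 overlaps ATG4A, an autophagy gene with 3760 counts that differed by 0.01 ± 0.09 (SE) between the clones. The strand setting of the counting is unknown here, so reads in an overlap cannot be assigned with certainty.

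COL4A5 (chromosome X, 107683074 to 107940775), the head-to-head neighbour of COL4A6, was at 5.38, 6.38 and 8.22 CPM in VP16 libraries and at 14.6, 17.9 and 22.1 CPM in GFP libraries. The clones were separate in each of the 3 conditions and in both index sets. The log2 difference was -1.47 ± 0.13 (SE, edgeR adjusted p = 0.00075). Within each library COL4A6 had 0.014 to 0.060 times the counts of COL4A5 in the VP16 clone and 0.066 to 0.127 times in the GFP clone, so the ranges did not overlap either. The calls of COL4A4, COL4A5 and COL4A6 remained in each of the 12 fits that leave out 1 library, with largest adjusted p of 0.009, 0.006 and 0.016.

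COL4A3, the head-to-head neighbour of COL4A4, was under the filter and not tested. It had 9 counts in the 6 VP16 libraries and 31 in the 6 GFP libraries, a ratio of VP16 over GFP of 0.306 with an exact binomial 95% interval of 0.128 to 0.658 for counting error only. The abundant pair did not pass: COL4A1 differed by -0.13 ± 0.12 and COL4A2 by -0.00 ± 0.10 (SE, edgeR adjusted p = 0.57 and 0.98). COL4A1 was at 223, 255 and 291 CPM in VP16 libraries and at 245, 256 and 373 CPM in GFP libraries, and COL4A2 at 442, 491 and 547 CPM against 448, 480 and 603 CPM. The counts of COL4A2 over those of COL4A1 were 1.88 to 2.00 in VP16 libraries and 1.62 to 1.90 in GFP libraries, which overlapped.

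**Figure D2:**
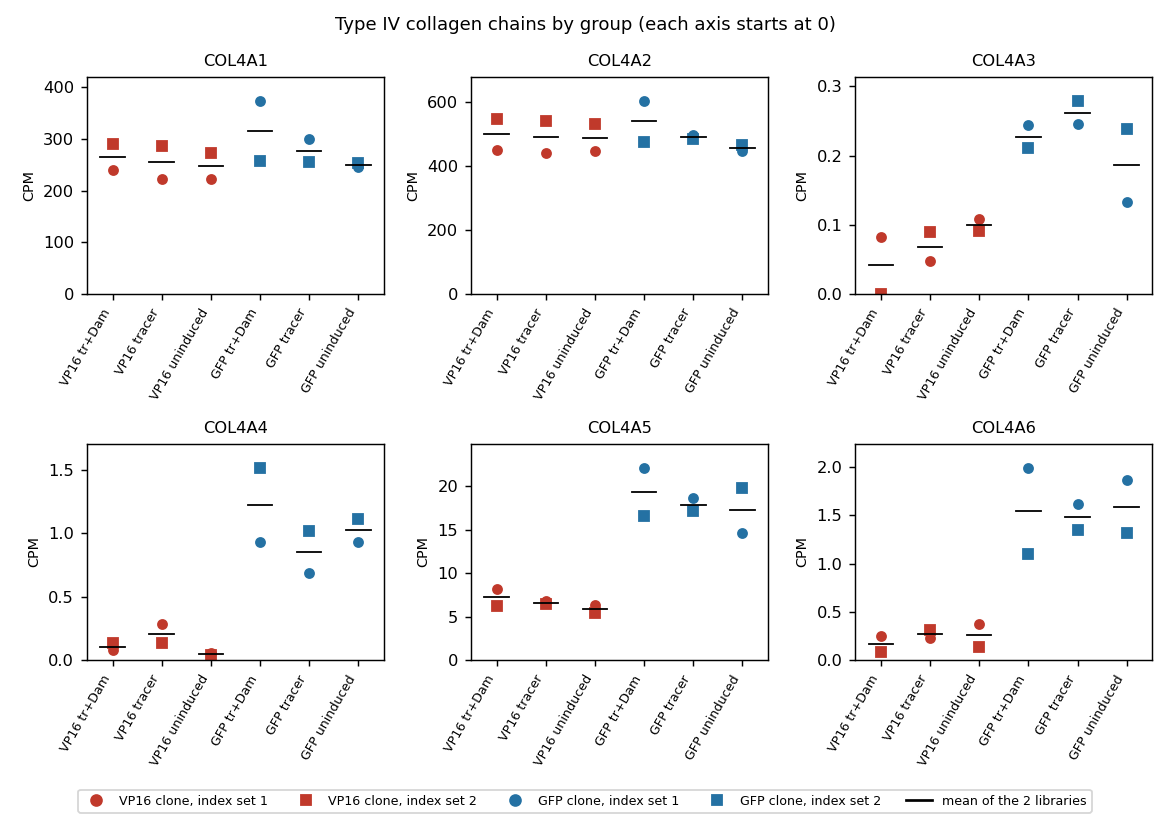
Levels of the 6 type IV chains in TMM-scaled CPM by group, with each axis starting at 0; each point is 1 library, circles index set 1, squares index set 2, and lines the mean of the 2 libraries (tr+Dam stands for tracer_Dam). COL4A4, COL4A5 and COL4A6 were lower in all 6 VP16 libraries (red) than in any GFP library (blue), while COL4A1 and COL4A2 overlapped.

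COL6A1 (chromosome 21, 47401651 to 47424964) was the 1 chain higher in the VP16 clone without the block. It was at 503.5, 638.9 and 776.8 CPM in VP16 libraries, against 282.9, 382.3 and 457.4 CPM in GFP libraries. In index set 1 the VP16 libraries held 570, 509 and 504 CPM in the order tracer_Dam, tracer and uninduced, against 457, 344 and 283 CPM in the GFP clone. In index set 2 they held 749, 777 and 707 CPM, against 373, 391.7 and 424 CPM. The clones were separate within each set. The log2 difference was 0.75 ± 0.16 (SE, edgeR adjusted p = 0.029). The value was 0.76 without the GFP_tracer_Dam and GFP_tracer libraries of index set 1 (adjusted p = 0.058), and the call ended in 6 of the 12 fits that leave out 1 library without the block and in none with it. Those 6 left out GFP_uninduced, GFP_tracer or VP16_tracer_Dam of index set 1, or any VP16 library of index set 2, and the adjusted p was at most 0.087.

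Its partners did not pass without the block. COL6A3 was at 1601, 1962 and 2278 CPM in VP16 libraries and at 1123, 1468 and 1871 CPM in GFP libraries, and these ranges overlapped. Its log2 difference of 0.42 ± 0.13 (SE) missed the threshold (edgeR adjusted p = 0.091) and passed with the index set as a block (0.41 ± 0.11, adjusted p = 0.030), a call that held in 3 of the 12 blocked fits that leave out 1 library (largest adjusted p 0.075). COL6A2 was at 207, 234 and 272 CPM in VP16 libraries and at 161, 177 and 322 CPM in GFP libraries, which differed by 0.20 ± 0.15 on the log2 scale (SE, edgeR adjusted p = 0.46). The counts of COL6A1 over COL6A2 were 2.09 to 3.42 in VP16 libraries and 1.42 to 2.36 in GFP libraries, and these ranges overlapped only across index sets. In index set 1 they were 2.09 to 2.43 in VP16 libraries and 1.42 to 1.76 in GFP libraries, and in index set 2 they were 3.23 to 3.42 in VP16 libraries and 2.20 to 2.36 in GFP libraries. The counts of COL6A3 over COL6A1 were 2.93 to 3.37 in VP16 libraries and 3.57 to 4.11 in GFP libraries, which did not overlap. The sum of 7 mesenchymal markers was 5337 to 6392 CPM in VP16 libraries and 3201 to 5564 CPM in GFP libraries, and its part in the type VI levels was not tested. VIM and FN1 held most of that sum, and the median log2 difference of the 7 was 0.04. VIM was at 3646 to 4206 CPM in VP16 libraries, above its 1745 to 3494 CPM in GFP libraries. FN1 overlapped, at 1034 to 2619 CPM in VP16 libraries and 520 to 2142 CPM in GFP libraries. THY1, a surface marker and the only member that passed, was lower in the VP16 clone by -2.17 ± 0.36 (SE, edgeR adjusted p = 0.0099), and CDH2, a cadherin, was at 67.7 to 96.7 CPM in VP16 libraries and at 92.1 to 108.2 CPM in GFP libraries. Type VI chains together made up 62.3% to 66.7% of collagen reads in VP16 libraries and 51.9% to 60.6% in GFP libraries.

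COL18A1 (chromosome 21, 46825052 to 46933634) was at 5.70, 6.33 and 7.25 CPM in VP16 libraries, against 7.86, 8.65 and 9.57 CPM in GFP libraries, without overlap. Its log2 difference was -0.45 ± 0.10 (SE, edgeR adjusted p = 0.026). The call ended without the low-count filter (-0.45, adjusted p = 0.15). It also ended, at an adjusted p of at most 0.097, in 9 of the 12 fits that leave out 1 library without the block, namely all but those without a GFP_tracer_Dam library or the GFP_tracer library of index set 2, and in none with it. COL18A1 overlaps the antisense genes COL18A1-AS1 and COL18A1-AS2, whose reads cannot be told apart from its own, and SLC19A1, a folate transporter gene that differed by 0.07 ± 0.12 (SE, edgeR adjusted p = 0.77).

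With the index set as a block 10 of 32 chains passed between the clones, 3 higher and 7 lower in the VP16 clone, against 20.9% of all genes tested (9.03% higher and 11.9% lower). COL12A1 was lower at -0.55 ± 0.08, COL6A5 at -0.99 ± 0.21 and COL27A1 at -0.23 ± 0.05 (SE, edgeR adjusted p = 0.0027, 0.015 and 0.019 with the block). COL15A1 was higher, by 0.44 ± 0.13 (adjusted p = 0.046), as was COL6A3. Among the 12 blocked fits that leave out 1 library, the call of COL12A1 held in 12, that of COL6A5 in 11, that of COL27A1 in 6 and that of COL15A1 in 3, with largest adjusted p of 0.016, 0.051, 0.085 and 0.106. COL12A1 was at 48.6, 61.9 and 70.5 CPM in VP16 libraries and at 65.0, 89.97 and 106.8 CPM in GFP libraries. COL6A5 was at 0.50, 0.83 and 1.09 CPM in VP16 libraries and at 1.08, 1.51 and 2.22 CPM in GFP libraries, COL27A1 at 85.2, 99.3 and 114.6 CPM against 105.7, 111.1 and 131.4 CPM, and COL15A1 at 4.88, 6.32 and 6.70 CPM against 2.97, 4.44 and 6.47 CPM. In these 4 chains the clones overlapped over all libraries. Within each index set, COL12A1 and COL6A5 did not overlap. For COL12A1 the highest VP16 and lowest GFP library were at 54.5 and 65.0 CPM in index set 1. In index set 2 they were at 70.5 and 93.5 CPM. For COL6A5 these values were 1.09 and 1.59 CPM in index set 1, and 0.97 and 1.08 CPM in index set 2. COL27A1 overlapped in index set 2 only and COL15A1 in index set 1 only. The share of all genes separated within each set is not given here. The wider count with the block was accompanied by a wider count over all genes.

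**Figure D3:**
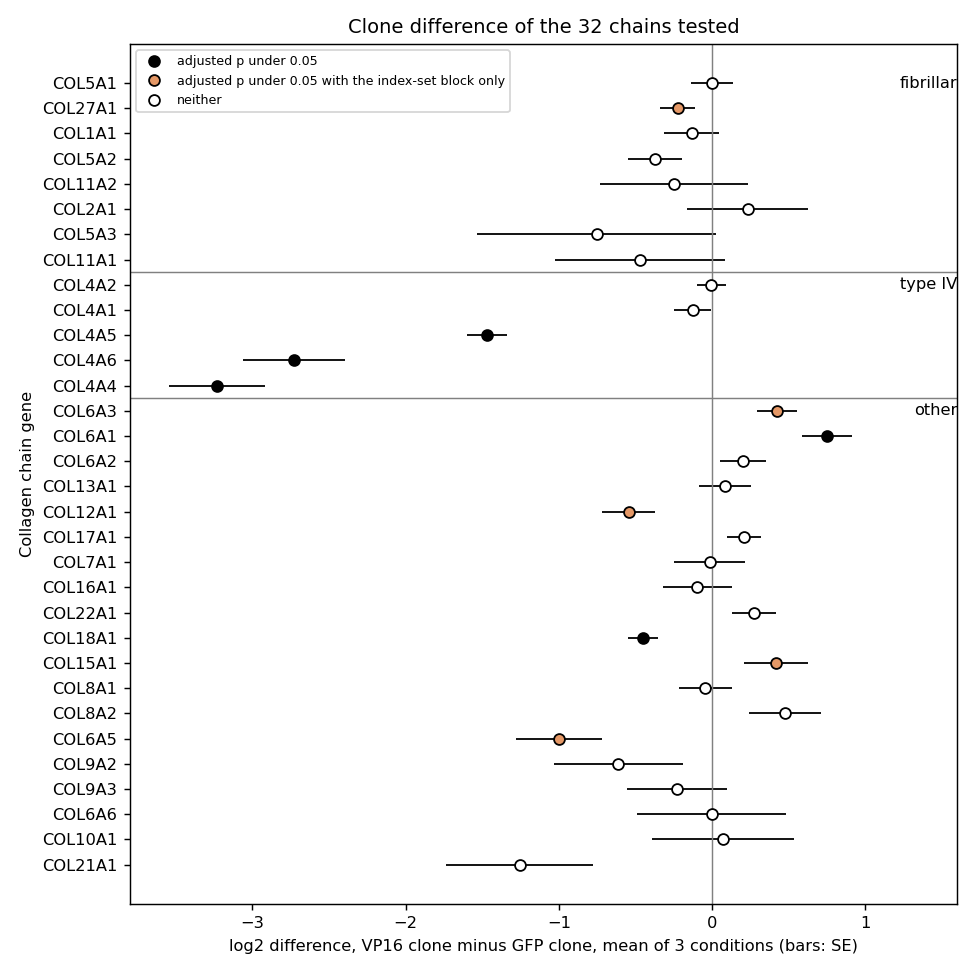
Log2 difference of each of the 32 tested chains, VP16 clone minus GFP clone, averaged over 3 conditions, with its SE as bars. Black points passed an adjusted p of 0.05 without the block, orange points with the index-set block only, and the leftmost points are COL4A4 at -3.23 and COL4A6 at -2.73.

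Fibrillar chains overlapped between the clones. COL5A1 (chromosome 9, 137533620 to 137736686) was at 241, 286 and 320 CPM in VP16 libraries and at 194, 309 and 344 CPM in GFP libraries, a difference of -0.00 ± 0.14 (SE, log2, edgeR adjusted p = 1.0). COL1A1 was at 9.67, 15.2 and 19.6 CPM in VP16 libraries and at 9.76, 14.3 and 22.3 CPM in GFP libraries, and COL5A2 at 1.16, 1.29 and 1.64 CPM against 1.37, 1.70 and 2.27 CPM. Of the membrane and anchoring chains, COL13A1 was at 138, 174 and 206 CPM in VP16 libraries and at 116, 173 and 204 CPM in GFP libraries, and COL17A1 at 36.5, 42.6 and 51.1 CPM against 34.0, 36.6 and 40.9 CPM. COL7A1 was at 25.3, 28.3 and 32.2 CPM in VP16 libraries and at 19.6, 22.5 and 53.7 CPM in GFP libraries. None of these chains passed.

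The summed level of fibrillar chains was 352, 408 and 450 CPM as lowest, median and highest VP16 library and 330, 437 and 491 CPM in GFP libraries. Type IV chains summed to 672, 753 and 844 CPM in VP16 libraries and 711, 756 and 1001 CPM in GFP libraries. The other chains, most of them type VI reads, summed to 2633, 3206 and 3685 CPM in VP16 libraries and 1881, 2425 and 3050 CPM in GFP libraries. In each class the summed levels of the clones overlapped. As a share of collagen reads, type IV chains took 16.9% to 18.2% in VP16 libraries and 20.1% to 23.5% in GFP libraries, and the other chains took 70.9% to 74.6% in VP16 libraries and 62.2% to 69.6% in GFP libraries, in both cases without overlap. Fibrillar chains took 8.38% to 10.9% in VP16 libraries and 7.53% to 14.3% in GFP libraries, which overlapped. Class shares add up to the whole, so a higher share of the other chains entails lower shares elsewhere. The type IV sums themselves had medians of 753 and 756 CPM in VP16 and GFP libraries.

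Genes that modify, fold, process and bind collagen were taken from 6 lists with 58 members in the table, of which 57 were tested. Between the clones over 3 conditions 6 were higher and 2 lower in the VP16 clone, against 7.64% of all genes in either direction. Of 14 tested genes of prolyl and lysyl modification, LEPRE1, a prolyl hydroxylase, was higher at 90.8, 101 and 129 CPM in VP16 libraries against 65.4, 71.2 and 80.5 CPM in GFP libraries (log2 0.54 ± 0.11). Of 10 genes of folding and export, the prolyl isomerase FKBP14 and the collagen-binding protein SPARC were higher, by 0.47 ± 0.10 and 0.43 ± 0.09 (SE). SPARC was at 731, 838 and 1073 CPM in VP16 libraries against 593, 637 and 707 CPM in GFP libraries, without overlap. Of 5 cross-linking enzymes, LOX, which oxidises lysines of collagen, was higher by 0.51 ± 0.11. Adjusted p-values of these 4 genes were 0.027 to 0.029 (edgeR).

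Of 8 genes of propeptide processing, PCOLCE and PCOLCE2, which enhance removal of the procollagen C-terminal propeptide, were lower by -0.87 ± 0.22 and -1.09 ± 0.12 (SE, edgeR adjusted p = 0.048 and 0.0020). PCOLCE2 was at 2.46, 2.79 and 3.35 CPM in VP16 libraries and at 4.97, 6.11 and 6.76 CPM in GFP libraries, and PCOLCE at 2.23, 3.38 and 4.81 CPM against 3.78, 6.58 and 8.18 CPM. PCOLCE overlapped between the clones and PCOLCE2 did not. Of 10 collagen receptors ITGA1, a subunit of a collagen-binding integrin, was higher at 64.3, 106 and 128 CPM in VP16 libraries against 30.4, 46.0 and 70.2 CPM in GFP libraries (log2 1.11 ± 0.18, edgeR adjusted p = 0.0092). Of 10 inducers of matrix genes, the TGF-beta receptor gene TGFBR1 was higher, at 247, 273 and 283 CPM in VP16 libraries against 162, 199 and 215 CPM in GFP libraries, by 0.47 ± 0.08 (SE, edgeR adjusted p = 0.0089). With the block 13 members were higher and 8 lower, against 20.9% of all genes; added as higher were PLOD1, P4HA1, CRTAP, P4HB, FKBP7, MIA3 and ITGB1, and as lower PPIB, GLT25D2, SERPINH1, TLL1, ADAMTS3 and MRC2. In the uninduced clones no list member passed, and with the block PCOLCE and PCOLCE2 were lower, against 1.42% of all genes, by -1.29 ± 0.19 and -1.15 ± 0.15 (SE, edgeR adjusted p = 0.017 and 0.013). Members with high average levels in their lists were P4HB at 870 and PLOD2 at 302 CPM for modification, LOXL2 at 358 CPM for cross-linking, BMP1 at 55.9 and ADAMTS3 at 5.09 CPM for processing, FKBP10 at 324 CPM beside SPARC for folding, ITGB1 at 1640 and ITGA2 at 750 CPM among receptors, and TGFBR2 at 305 CPM among inducers.

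Removal of doxycycline, which induces the tracer, was examined within each clone, and the effects of withdrawal and of the tracer cannot be told apart. No chain passed in either clone with edgeR, DESeq2 or limma-voom, or with the index set as a block. With edgeR, without and with the block, the background was 0% of all genes. An unadjusted p under 0.05 was reached in the VP16 clone by 72 of 17262 genes and 1 chain, and in the GFP clone by 125 genes and 0 chains. The median log2 change of the tested chains was 0.12 in the VP16 clone and 0.06 in the GFP clone, against -0.00 and 0.01 over all genes.

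In the VP16 clone COL1A1 was at 15.01 and 15.4 CPM in VP16_tracer, against 9.67 and 11.0 CPM in VP16_uninduced. Both VP16_tracer libraries were above both VP16_uninduced libraries, and both VP16_tracer_Dam libraries were above these, at 19.6 and 16.3 CPM. COL22A1 was at 19.9 and 15.9 CPM in VP16_tracer, against 15.6 and 12.3 CPM in VP16_uninduced, with VP16_tracer_Dam at 23.5 and 18.5 CPM. For COL22A1 too, both VP16_tracer libraries were above both VP16_uninduced libraries. The share of all genes separated in this way, with 2 libraries a group, is not given here.

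The log2 changes of VP16_tracer against VP16_uninduced were 0.56 ± 0.32 for COL1A1 and 0.36 ± 0.25 for COL22A1 (SE, edgeR adjusted p = 1.0 each). In an additional fit, chosen after seeing the data, that took only the 6 VP16 libraries and blocked on index set, COL1A1 and COL22A1 were higher in VP16_tracer by 0.56 ± 0.11 and 0.37 ± 0.09 (SE, edgeR adjusted p = 0.013 and 0.045), 2 of 27 chains tested there against 0.861% of all genes (0.793% higher and 0.0682% lower). For the GFP clone the same fit, which held the outlying GFP_tracer_Dam and GFP_tracer libraries of index set 1, called no chain and no gene. Both fits by clone had few residual degrees of freedom, which limits their SE and p-values. COL4A4, the chain with an unadjusted p under 0.05, rested on 9 counts in VP16_tracer against 2 in VP16_uninduced.

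In the GFP clone COL1A1 was at 22.3 and 12.2 CPM in GFP_tracer, against 9.76 and 13.9 CPM in GFP_uninduced. It was higher in index set 1 and lower in index set 2, and the log2 change was 0.54 ± 0.31 (SE, edgeR adjusted p = 0.999). COL7A1 and COL16A1 followed the outlying libraries: COL7A1 was at 53.7 and 19.9 CPM in GFP_tracer_Dam, at 38.4 and 22.9 CPM in GFP_tracer and at 19.6 and 22.1 CPM in GFP_uninduced. COL16A1 was at 36.1 and 16.2 CPM in GFP_tracer_Dam, at 29.3 and 15.6 CPM in GFP_tracer and at 16.2 and 15.02 CPM in GFP_uninduced. In GFP_tracer_Dam and GFP_tracer the high value was in the library with the raised ATF4 targets, at 2458 and 2254 CPM as given above. Its part in these levels was not tested.

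Among the 21 chains averaging at least 1 CPM, 15 were higher and 3 lower in VP16_tracer than in VP16_uninduced in both index sets, against 29.2% higher and 33.1% lower of 13750 genes at that level. The 15 included the 3 main type VI chains, COL4A1, COL4A5, COL1A1 and COL12A1, and the 3 lower were COL5A1, COL17A1 and COL27A1. In the GFP clone 6 chains were higher in both sets and 0 lower, against 22.1% and 21% of genes. These 6 were COL4A1, COL4A2, COL7A1, COL16A1, COL18A1 and COL22A1, and 15 chains changed direction between the sets. The difference between the clones in this response was tested directly and no chain passed (0 of 32, against 0% of all genes with edgeR). In that edgeR test 94 genes and 1 chain, COL4A4, had an unadjusted p under 0.05. DESeq2, limma-voom and the block also gave 0 chains.

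Addition of Shield1, which stabilises Dam-LaminB1, was examined by setting tracer_Dam against tracer cells. No chain passed in either clone with edgeR, DESeq2, limma-voom or the block. The background was again 0% of all genes with edgeR, without and with the block. An unadjusted p under 0.05 was reached by 53 genes in the VP16 clone and by 80 in the GFP clone, and by no chain. COL5A1, the leading fibrillar chain, was at 241 and 281 CPM in VP16_tracer_Dam, against 277 and 292 CPM in VP16_tracer, while VP16_uninduced stood at 298 and 320 CPM. It was at 194 and 320 CPM in GFP_tracer_Dam, against 236 and 344 CPM in GFP_tracer, while GFP_uninduced stood at 308 and 310 CPM. Within each index set and clone COL5A1 was lower with Shield1, by -0.12 ± 0.24 on the log2 scale in the VP16 clone and -0.17 ± 0.24 in the GFP clone (SE, edgeR adjusted p = 1.0 each), less than the errors.

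In the VP16 clone 9 of 21 chains were higher and 3 lower in VP16_tracer_Dam than in VP16_tracer in both sets, against 28.5% and 28.6% of genes. In the GFP clone 5 were higher and 2 lower in GFP_tracer_Dam than in GFP_tracer, against 26.6% and 25.2%. COL4A1 was at 373 and 257 CPM in GFP_tracer_Dam, against 299 and 255 CPM in GFP_tracer. COL4A2 was at 603 and 476 CPM in GFP_tracer_Dam, against 496 and 484 CPM in GFP_tracer. The higher value of each group was the outlying library. COL6A2 was at 322 and 169 CPM in GFP_tracer_Dam, against 219 and 174 CPM in GFP_tracer, a log2 change of 0.32 ± 0.26 (SE, edgeR adjusted p = 1.0). No chain passed in the difference between the clones in this response (0 of 32, against 0% of all genes with edgeR). In that edgeR test 50 genes and 0 chains had an unadjusted p under 0.05. DESeq2, limma-voom and the block also gave 0 chains.

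**Figure D4:**
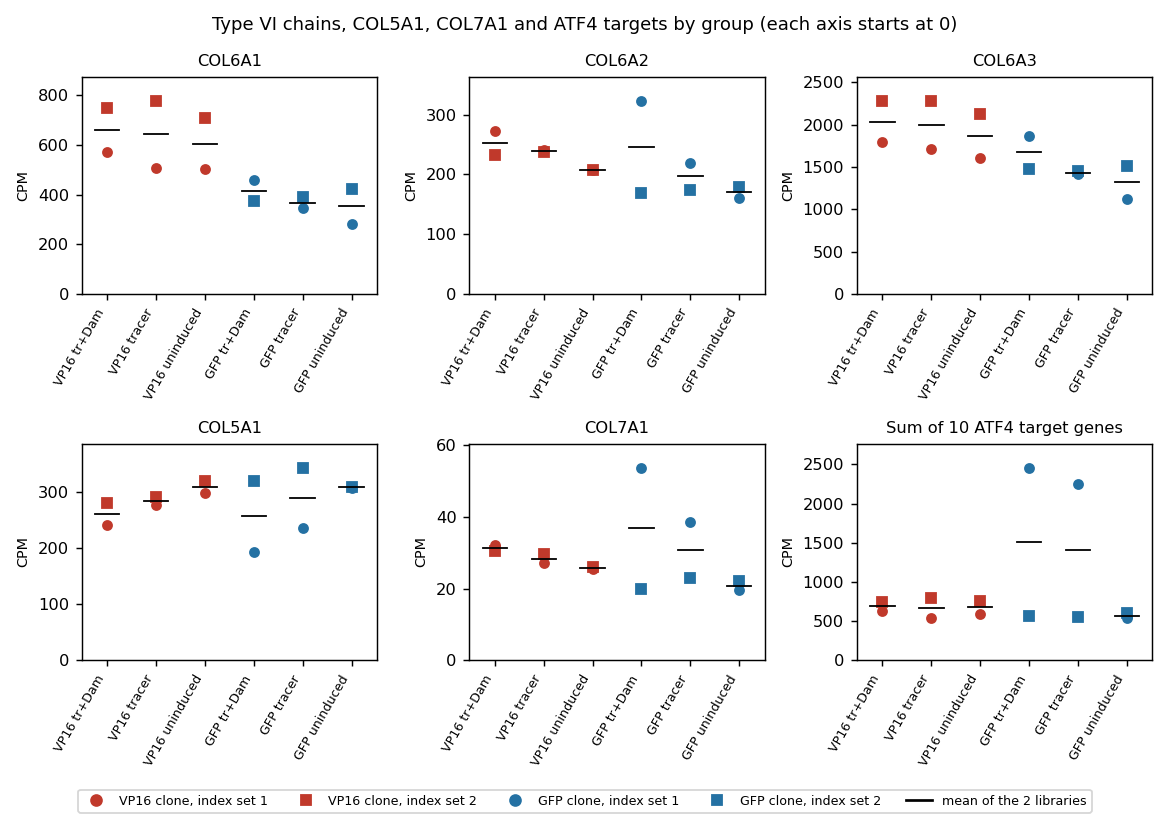
Levels of COL6A1, COL6A2, COL6A3, COL5A1 and COL7A1 and the summed level of 10 ATF4 target genes, in TMM-scaled CPM by group with axes starting at 0; points are libraries (circles index set 1, squares index set 2) and lines the mean of the 2 libraries. COL6A1 was higher in the VP16 clone (red) throughout, and COL7A1 was highest in the GFP libraries (blue) whose ATF4 targets stood at 2458 and 2254 CPM.

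Index sets 1 and 2 were compared within groups. Of 32 chains 3 were higher and 4 lower in index set 1, against 28.2% of all genes (15.6% higher and 12.6% lower), and for no chain did the 6 libraries of one set lie outside those of the other, against 14.6% of all genes. COL5A3, a minor type V chain, was higher in index set 1 at 0.38, 0.66 and 1.72 CPM as lowest, median and highest library, against 0.05, 0.20 and 0.40 CPM in index set 2 (log2 2.02 ± 0.47). COL8A2 was higher by 0.52 ± 0.15 and COL15A1 by 0.46 ± 0.13. The adjusted p-values were 0.016, 0.033 and 0.033 (edgeR). The call of COL8A2 ended in each of the 12 fits that leave out 1 library, and that of COL15A1 in all but those without a VP16_tracer_Dam library, with adjusted p of at most 0.085 and 0.086. Without the 2 outlying GFP libraries COL5A3 differed by 1.33 and COL15A1 by 0.26 (adjusted p = 0.018 and 0.067).

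Lower in index set 1 were COL12A1 at 48.6, 59.7 and 86.4 CPM against 69.3, 82.0 and 106.8 CPM in index set 2 (log2 -0.45 ± 0.08) and COL13A1 at 116, 144 and 178 CPM against 171, 196 and 206 CPM (-0.43 ± 0.08). COL27A1 differed by -0.27 ± 0.05 and COL2A1, the main cartilage chain, by -1.02 ± 0.19 at 0.42, 0.47 and 0.78 CPM in index set 1 against 0.65, 1.10 and 1.24 CPM in index set 2. The adjusted p-values of the 4 were 0.0052 to 0.0087 (edgeR). By class 3 of 8 fibrillar, 0 of 5 type IV and 4 of 19 other chains passed.

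Within the VP16 clone alone 12 of 27 chains passed between the sets, 3 higher and 9 lower, against 43.5% of genes (21.9% higher and 21.7% lower). COL6A1 and COL6A3 were lower there in index set 1, by -0.49 ± 0.04 and -0.38 ± 0.03 (SE, edgeR adjusted p = 3.1e-10 and 6.0e-10), as were COL4A1 and COL4A2, by -0.31 ± 0.03 and -0.27 ± 0.03. These SE and p-values have the limit of a fit by clone, with few residual degrees of freedom. Within the GFP clone alone 1 of 31 passed, COL5A3 at 3.05 ± 0.54 (SE, edgeR adjusted p = 0.048), against 5.32% of genes (3.79% higher and 1.53% lower). Without the 2 outlying GFP libraries 12 of 30 chains passed over both clones, as did 6947 of 17558 genes. Among the 57 tested genes of the collagen lists 15 were higher and 8 lower in index set 1, against 15.6% higher and 12.6% lower of all genes, with ADAMTS2, a procollagen N-proteinase, higher by 2.89 ± 0.22 and PCOLCE lower by -0.56 ± 0.10 (SE, edgeR adjusted p = 0.00026 and 0.0073). Members higher in index set 1 also included ADAMTS14, LAIR1, GPR56, TGFB2, SERPINH1, LEPRE1, LOX, DDR1, P4HA2, FKBP14, SPARC, PLOD3 and PPIB, and the others lower were ITGA10, ADAMTS3, SMAD3, GLT25D2, SEC23A, P4HA1 and MIA3. LEPRE1, FKBP14, SPARC and LOX, higher in the VP16 clone, were thus also higher in index set 1.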

How the data were processed

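The 12 libraries of HT1080 cells were made from Trizol-extracted RNA with the Illumina TruSeq RNA kit, per the labels' protocols. Per the submitters' processing notes, TopHat 1.4.0, Bowtie 0.12.7 and HTSeq were used with GRCh37; the version, overlap mode and strandedness of HTSeq were not given in the sources used here. Deposited by the authors were whole-number read counts per gene, not normalized, with 59 genes lacking annotation, and all columns were used. Reads of overlapping genes are uncertain, and 15 of the 42 chains overlap another gene.

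Genes were kept by edgeR's filterByExpr (17262), scaled by TMM and fitted with a robust quasi-likelihood model with 1 coefficient per group over all 12 libraries (6 residual degrees of freedom; edgeR 4.0.16, R 4.3.3), for 9 comparisons, with Benjamini-Hochberg adjustment over all genes at 0.05. The SE is the absolute log2 change divided by the square root of F. The index set comparison used group and index set as terms. For each of 15 pairs of groups, same-set libraries deviated together from their group means (correlations of 0.41 to 0.86). The index sets, read from the library titles, thus pair the libraries. The main fit of the group comparisons leaves this pairing out, so its SE include the difference between sets. The fit with the set as a block (5 residual degrees of freedom) is given where it changes a call. Within a group the libraries' counts gave chi-square values of 22.0 to 144.2 per degree of freedom, so none was a duplicate. The filter, scaling and edgeR fit, without and with the block, were run on simulated counts for the comparison of the uninduced clones only. The means and spreads of these counts were taken from the data. The outcome is not given here, and the other comparisons were not scored.

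Coding length is the longest coding sequence in GENCODE 29, matched for all 42 chains by Ensembl identifier; promoters are from RefSeq (GRCh38.p14). Protein sequences were not used here, so the planned description of repeats in the chains was left out. The members, classes and pathway lists were chosen with earlier results of these data known. Named were the chains averaging at least 1 CPM, the type IV chains, chains passing in any comparison, list members passing, and the 2 highest of each list; the 2 list members with values between index sets were chosen after their values were seen, and 1 list member is not reported here. Alternatives were RLE scaling, DESeq2 1.42.0, limma-voom (limma 3.58.1), no filter or at least 50 reads in 2 libraries, only the groups compared, the block, and leaving out each library or the 2 outlying ones.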

Additional observations from a re-analysis of the deposited data

How the results depend on the processing

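All of 552 alternative log2 changes of 20 chain results kept their direction; 407 also kept their side of the threshold, 80 fell below it and 65 rose above it. The 36 class sums under other scalings moved by less than 1 SD. Between the clones over 3 conditions, where 5 chains passed, 8 did with DESeq2, 3 with at least 50 reads in 2 libraries (19 chains tested), 10 with the index set as a replicate block, 8 without the GFP_tracer_Dam and GFP_tracer libraries of index set 1, and 16 with the block and without them. Leaving out 1 library gave 3 to 6, or 6, 7, 8, 9, 10, 11 or 12 with the block. Between the uninduced clones 2 passed, against 0.278% of all genes, and 3 with the block, against 1.89%. Both counts hold chains that passed the low-count filter only through the GFP libraries. In that comparison limma-voom and a fit of only the uninduced groups gave 0, and the 50-read filter 1. Leaving out 1 library gave 0 to 2, or 0, 1, 3 or 6 with the block. Between the index sets, where 7 passed, 12 of 30 tested did without the outlying pair, 12 in the VP16 clone alone and 1 in the GFP clone alone, and 5 to 8 with 1 library left out. For VP16_tracer against VP16_uninduced the block in the 6 VP16 libraries, chosen after seeing the data like the other fits by clone or without the pair, gave 2 instead of 0; that fit was not repeated with libraries left out, and the fit of all 12 gave 0 whichever was left out. The cause of these shifts was not tested, beyond the fewer genes and libraries that some settings hold. Shares of all genes under DESeq2, limma-voom, the 50-read filter and fits with 1 library left out are not given here. Counts under those settings are therefore not read as a result about the chains. The replicate block changed no other count of chains. Fitting only the groups compared has no counterpart for the clones over 3 conditions, which use all libraries. Chains under 1 CPM rest on few counts, and 2 libraries a group limit every comparison.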
